A study of Mus musculus with 32 samples.

Results

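RNA sequencing of fibro-adipogenic progenitors (FAPs) sorted from injured mouse muscle at day 3 was compared with that of FAPs sorted at day 7. The 8 libraries of control muscle, 4 per day, were chosen by their labels out of 32 libraries in the series. The control muscle was the supraspinatus, a muscle of the rotator cuff, of 12-week-old male C57BL/6J mice of wild-type genotype, injured by injection of cardiotoxin, which kills muscle fibres, and given nothing else. The other muscle of each mouse had the same injury and a transplant of interscapular brown adipose tissue (BAT) from a mouse aged 3 weeks. FAPs of those BAT muscles and satellite cells of the control muscles, on both days, served for comparison below, with 4 libraries per group. Per the labels, FAPs were gated by flow cytometry as CD45-, CD31-, Sca1+ and integrin alpha 7-. Satellite cells were gated with integrin alpha 7 present, and their gate for Sca1 is not given here. Days are given as D3 and D7, with no word on the event they count from, and uninjured muscle is not analysed here. Day 3 and day 7 came from different mice and from separate deposited tables, so that day cannot be told apart from a mouse, table or batch that goes with it.

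FAPs are the interstitial mesenchymal cells of skeletal muscle. After injury they enter the cell cycle, secrete cytokines, growth factors and matrix that act on the muscle stem cells (satellite cells), and their number later declines. They carry the receptor PDGFRA and the surface antigen Sca1, which Ly6a encodes. They can also give rise to fibroblasts and adipocytes.

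Levels are given as CPM, a gene's share of all counts of its library in parts per 1e6, after TMM scaling, a scaling that sets the bulk of genes level between libraries. Values in a row of 4 are replicates 1 to 4 of a day, each a different mouse. A gene was called, that is, said to have risen or fallen from day 3 to day 7, at a Benjamini-Hochberg adjusted p under 0.05 in edgeR's quasi-likelihood test over all genes tested. Changes are log2 values, day 7 minus day 3, ± standard error (SE). In sorted bulk cells, fewer cells of a type and less RNA per cell cannot be told apart.

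Libraries held 22056809 to 30511972 counts, so that a gene at 0 may have been at up to 0.136 CPM in the shallowest one (3 counts, counting error only). Pdgfra was at 308, 282, 267 and 406 CPM at day 3 and 317, 286, 288 and 303 CPM at day 7. Ly6a was at 847, 854, 662 and 868 CPM at day 3 and 1169, 838, 557 and 552 CPM at day 7. Both groups thus had the defining markers at levels that overlapped between days (-0.07 ± 0.16, adjusted p = 0.776 for Pdgfra and -0.05 ± 0.25, adjusted p = 0.912 for Ly6a). Pax7, the transcription factor of satellite cells, had 0 counts in 7 libraries and 0.554 CPM in day 7 replicate 3. Ptprc, which encodes CD45, was at most 0.424 CPM. Pecam1, which encodes CD31, was at 14.2 CPM in day 7 replicate 2 and at most 3.09 CPM elsewhere. Itga7 was at 2.61 to 15.1 CPM, highest in day 7 replicate 3. That library also had the highest levels of the myogenic genes Myod1 (3.63 CPM, at most 0.341 CPM elsewhere) and Myog (7.39 CPM, at most 0.617 CPM elsewhere). Values of these 2 genes are CPM without TMM scaling.

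The library of day 7 replicate 3 stood apart. Its log CPM correlated better with the day 3 libraries (mean r over genes 0.963) than with those of its own day (0.958). On the first principal component, which held 52.2% of the variance, it lay at 8.68, against 41.2 to 52.0 in the other day 7 and -43.6 to -30.3 in the day 3 libraries. It also went against its label: Xist, a transcript of female cells, was at 181 CPM and the Y-linked Ddx3y at 0, and the same held in all 4 libraries of that mouse. Ddx3y was at 47.1 to 94.4 CPM in the other 7 libraries. Where leaving out this library changed the call of a gene named below, or moved its called change by over 1.5 times, the value without it is given too.

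Of 16144 genes tested, 1863 rose (11.5%) and 1848 fell (11.4%) by day 7, and 6132 had an unadjusted p under 0.05. At least 2-fold changes made up 1117 of the rises and 660 of the falls (429 without day 3 replicate 2). The groups did not overlap for 4381 genes (27.1%). The median change over all genes was 0.09. Without day 7 replicate 3, 2429 genes rose and 2197 fell. Without day 3 replicate 2, 3 or 4, respectively, the counts dropped to 1015 and 965, 1077 and 1082, or 1029 and 1128. A fit without any one library called between 52.4% and 93.6% of the same genes in the same direction.

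**Figure D1:**
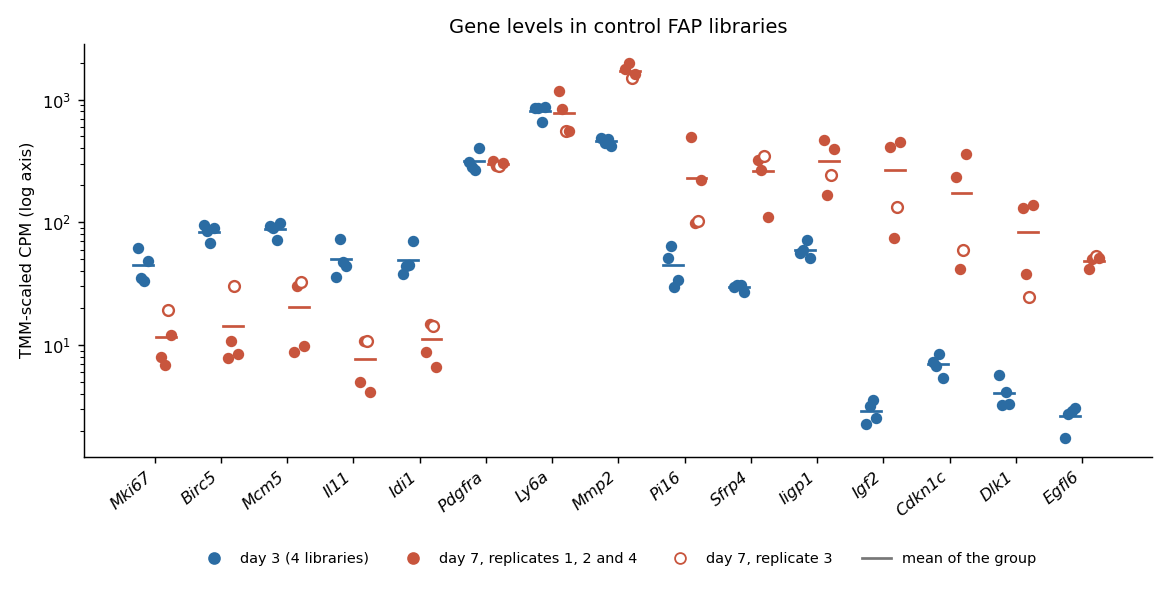
TMM-scaled CPM (log axis) of 15 genes in each control FAP library, blue for day 3 and red for day 7, with the group mean as a bar and day 7 replicate 3 as an open circle. The proliferation genes on the left were lower in every day 7 library, Pdgfra and Ly6a overlapped between the days, and Igf2 rose from at most 3.58 CPM to at least 74.3 CPM.

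The genes with the largest falls were mostly genes of cell division. By rule, the 12 largest falls among called genes above 20 CPM with groups that did not overlap included those of Il11, Spc24, Pclaf, Melk, Birc5, Cdkn3, Asf1b, Ccl9, Gmnn, Trip13 and Mxd3. Spc24, a kinetochore subunit, was at 44.9, 55.4, 43.4 and 58.9 CPM at day 3 and 4.14, 5.22, 17.2 and 6.94 CPM at day 7 (log2 change -2.600 ± 0.39, adjusted p = 0.0026). Birc5 (survivin), which guards chromosome segregation, was at 94.7, 84.4, 67.2 and 89.8 CPM at day 3 and 7.88, 10.8, 30.2 and 8.43 CPM at day 7 (log2 change -2.55 ± 0.40, adjusted p = 0.00302). In each of these mitotic genes day 7 replicate 3 lay above the other day 7 libraries, while the rule itself required it to lie below day 3. Without that library the changes were larger, -3.203 for Spc24 and -3.203 for Birc5.

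Of 66 mitosis genes tested 64 fell and 0 rose, with a median change of -1.92 against 0.09 for all genes, and 65 fell without day 7 replicate 3. Mki67, the proliferation antigen Ki-67, was at 61.9, 34.96, 33.0 and 48.8 CPM at day 3 and 7.92, 6.86, 19.4 and 12.1 CPM at day 7 (log2 change -1.94 ± 0.33, adjusted p = 0.00401). Top2a, the topoisomerase that untangles sister chromatids, was at 128, 128, 104 and 116 CPM at day 3 and 21.5, 33.3, 79.7 and 14.7 CPM at day 7 (log2 change -1.67 ± 0.43, adjusted p = 0.0194). Ccnb1, the cyclin of mitotic entry, went from 70.5 ± 9.27 to 15.9 ± 13.2 CPM (mean ± SD, n = 4, log2 change -2.15 ± 0.46). Of 50 DNA replication genes 39 fell and 1 rose (median -1.31). Mcm5, a subunit of the replicative helicase, was at 92.5, 89.2, 72.3 and 97.8 CPM at day 3 and 8.698, 30.5, 32.4 and 9.8 CPM at day 7 (log2 change -2.102 ± 0.41, adjusted p = 0.00646). Tk1 (thymidine kinase, -2.28 ± 0.31) and Rrm2 (a subunit of ribonucleotide reductase, -2.01 ± 0.34) also fell. Pclaf, a binding partner of the replication clamp, fell from 93.9 ± 4.32 to 15.8 ± 13.7 CPM. The member that rose was E2f1, a transcription factor of the G1 to S transition (0.55 ± 0.18, adjusted p = 0.0477), which was called in 1 of the 8 fits that each left out a library. Top2a lost its call in 1 of those 8 fits (highest adjusted p 0.056).

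Promoters of these genes are known for a few short motifs: the CHR element (TTTGAA) and CCAAT box of mitotic genes, bound by the DREAM and NF-Y complexes, and the E2F sites of replication genes. The stretches of 250 bases before the RefSeq start of Mki67, Top2a and Mcm5 (RefSeq, GRCm38.p6) are shown because these genes stand for the falls described above and hold the motifs of their class. They were chosen after the matches were seen. Capitals mark TTTGAA and CCAAT, or their reverse complements, in Mki67 (chr7, minus strand, chr7:135716380-135716629) and Top2a (minus strand, chr11:99024190-99024439), and TTTGGCGC or its reverse complement in Mcm5 (plus strand, chr8:75109259-75109508).
Mki67: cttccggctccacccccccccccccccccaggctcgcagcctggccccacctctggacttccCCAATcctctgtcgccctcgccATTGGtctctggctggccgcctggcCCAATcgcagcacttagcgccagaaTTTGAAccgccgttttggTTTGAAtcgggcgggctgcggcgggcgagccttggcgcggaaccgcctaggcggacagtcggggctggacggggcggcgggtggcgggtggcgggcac
Top2a: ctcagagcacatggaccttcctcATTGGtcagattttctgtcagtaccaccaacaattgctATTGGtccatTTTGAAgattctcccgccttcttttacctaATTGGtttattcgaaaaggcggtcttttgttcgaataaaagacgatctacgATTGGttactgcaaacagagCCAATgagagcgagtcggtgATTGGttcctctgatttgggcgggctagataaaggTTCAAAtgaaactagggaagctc
Mcm5: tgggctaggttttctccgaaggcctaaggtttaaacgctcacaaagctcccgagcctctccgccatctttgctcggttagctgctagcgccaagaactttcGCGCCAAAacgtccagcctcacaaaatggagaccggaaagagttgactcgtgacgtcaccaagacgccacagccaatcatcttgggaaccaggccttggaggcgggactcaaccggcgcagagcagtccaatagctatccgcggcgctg
In these windows Mki67 holds 5 and Top2a 8 matches, the nearest of Top2a at 23 bases before the start. Searched on both strands of the whole 300-base RefSeq windows, TTTGAA was found for 38 of 55 mitosis genes with an entry (69.1%, against 20.2% of 27025 genes), and CCAAT for 38 of 55 (69.1% against 41.1%). TTTGGCGC was found for 8 of 41 replication genes (19.5% against 0.585%) and TTTCCCGC for 6 of 41 (14.6% against 1.24%). Each motif was counted on its own, also where end letters of one can be shared with another. Mitosis genes without TTTGAA, or without CCAAT, in the 300-base windows were among the falls too. A match is a description of the letters and no binding was measured.

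D cyclins, their kinases and CDK inhibitors, with related growth-arrest genes, had more rises than falls: of 24 tested 9 rose, 2 fell and 13 did not pass (median 0.62). Cdkn1c, the CDK inhibitor p57, was at 7.33, 6.71, 8.51 and 5.43 CPM at day 3 and 233, 41.9, 59.8 and 361 CPM at day 7 (log2 change 4.64 ± 0.65, adjusted p = 0.00204). Replicates 1 and 4 were its highest libraries at day 7. Cdkn2b, the inhibitor p15, rose from 2.601 ± 0.511 to 8.81 ± 4.79 CPM (1.77 ± 0.38). Cdk4, the kinase of D cyclins, fell (-0.59 ± 0.15, adjusted p = 0.0188) and was called in 5 of the 8 fits without a library. Cdkn1a, the inhibitor p21, went from 115 ± 30.03 to 209.9 ± 121 CPM (mean ± SD, n = 4) with overlapping groups and did not pass (log2 change 0.87 ± 0.37, adjusted p = 0.107). Ccnd1, which encodes cyclin D1, did not pass either (-0.76 ± 0.28, adjusted p = 0.0699).

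The largest of the 12 rises chosen by the same rule was that of Igf2, the fetal growth factor, which is imprinted and expressed from the paternal allele. Igf2 (chr7:142650766-142666816, minus strand, mm10) was at 2.28, 3.202, 3.58 and 2.54 CPM at day 3 and 411, 74.3, 132 and 448 CPM at day 7. The change was 6.53 ± 0.60 (adjusted p = 0.000614), and the groups lay far apart. The 12 were Igf2, Acta1, Cdkn1c, Dlk1, Egfl6, Cdh13, Col6a6, Kcnj15, Olfml2a, Prss35, Cpz and Sfrp4. The rise of Kcnj15, a potassium channel gene (3.296 ± 0.74), was 1.96 (adjusted p = 0.00518) without day 7 replicate 3, its highest library. Dlk1, a paternally expressed transmembrane inhibitor of adipogenesis (chr12:109452823-109463336, plus strand), was at 5.72, 3.24, 4.12 and 3.28 CPM at day 3 and 129.7, 37.8, 24.5 and 139 CPM at day 7 (log2 change 4.34 ± 0.56, adjusted p = 0.00164). H19, the maternally expressed RNA beside Igf2 (chr7:142575529-142578143, minus strand), was at 125, 122, 151 and 88.4 CPM at day 3 and 901, 447, 911 and 1167 CPM at day 7 (log2 change 2.83 ± 0.29, adjusted p = 0.000744). These genes were followed further because several are imprinted, a choice made after the values were seen. Of 28 imprinted genes 13 rose and 0 fell, with a median of 0.94, against 11.5% and 11.4% of all genes tested. The count includes genes whose rises prompted the choice, so it is a description only. Mest, a paternally expressed hydrolase, was at 177, 159, 272 and 105 CPM at day 3 and 1348, 762, 722 and 1805 CPM at day 7 (log2 change 2.71 ± 0.36, adjusted p = 0.00183). Zim1 (4.54 ± 0.79), Peg3 (2.07 ± 0.46) and Plagl1 (1.96 ± 0.33), which encode zinc finger proteins, rose, as did Gnas (1.04 ± 0.26), which encodes a G protein subunit and was called in 5 of 8 fits without a library. Meg3, a maternally expressed RNA, was at 408, 310.2, 424 and 471 CPM at day 3 and 1225, 285, 1427 and 2649.7 CPM at day 7 (log2 change 1.798 ± 0.49, adjusted p = 0.025). Its day 7 replicate 2 lay below every day 3 library, and it was called in 3 of the 8 fits. Replicates 1 and 4 were the highest day 7 libraries for Igf2, Cdkn1c, Dlk1, Mest, Zim1, Peg3 and Plagl1.

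Other genes of the IGF system rose with Igf2, 7 of 18 in all and 0 fell (median 0.56). Igf1, the growth factor that FAPs supply to regenerating muscle, was at 215, 284, 389.8 and 188 CPM at day 3 and 792, 492, 629.9 and 888 CPM at day 7 (log2 change 1.39 ± 0.26, adjusted p = 0.00579). Igfbp5, an IGF-binding protein, was at 59.8, 27.7, 26.4 and 32.6 CPM at day 3 and 421, 333, 84.2 and 274 CPM at day 7 (log2 change 2.94 ± 0.45, adjusted p = 0.00285), lowest at day 7 in replicate 3.

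Egfl6, a secreted matrix protein with EGF repeats, had the smallest adjusted p of any gene. It was at 1.75, 2.74, 2.91 and 3.07 CPM at day 3 and 41.8, 49.8, 52.8 and 50.9 CPM at day 7 (log2 change 4.23 ± 0.21, adjusted p = 9.77e-06), with little spread within either day. Cpz, a carboxypeptidase of the matrix, was at 3.16, 4.09, 4.03 and 2.997 CPM at day 3 and 28.9, 26.7, 44.5 and 27.2 CPM at day 7 (3.16 ± 0.22). Cdh13, which encodes T-cadherin, varied far more, at 8.84, 3.28, 2.78 and 9.097 CPM at day 3 and 83.8, 292, 11.9 and 20.1 CPM at day 7 (log2 change 4.11 ± 0.94, adjusted p = 0.0125). Without day 7 replicate 2 its change was 2.68 (adjusted p = 0.0206).

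**Figure D2:**
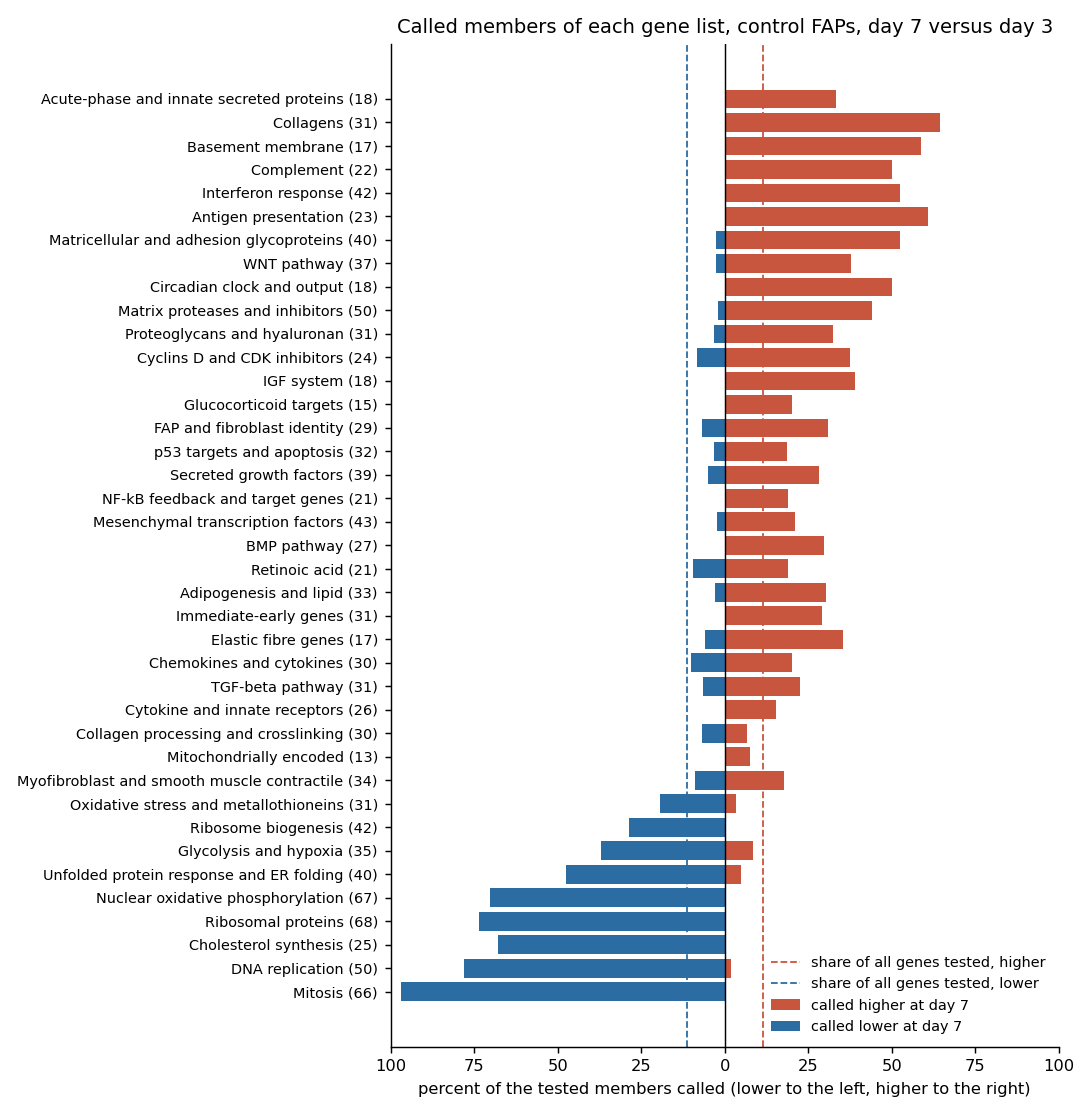
Percent of the tested members of each gene list (number tested in parentheses) called higher (red, to the right) or lower (blue, to the left) at day 7, ordered by median log2 change. Dashed lines mark the shares of all genes tested, 11.5% higher and 11.4% lower. Complement, interferon and matrix lists, except collagen processing and crosslinking, reach far past the right line. Mitosis, replication, cholesterol, ribosomal and respiratory lists reach far past the left one.

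Genes of the extracellular matrix, the scaffold that FAPs lay down, rose in several lists. Of 31 collagen genes 20 rose and 0 fell (median 1.12), and 24 rose without day 7 replicate 3. Col1a1, a chain of type I collagen, was at 13798, 8373, 9794 and 8411 CPM at day 3 and 15503, 65163, 25644 and 21699 CPM at day 7 (log2 change 1.68 ± 0.43, adjusted p = 0.0182). Replicate 2 was the highest at day 7, and replicate 1 at day 7 lay little above the highest day 3 library. The call of Col1a1 was lost in 3 of 8 fits without a library (highest adjusted p 0.0617), and without day 7 replicate 2 the change was 1.06 (adjusted p = 0.0195). Col3a1, the chain of type III collagen, was at 13664, 12839, 13350.2 and 11322 CPM at day 3 and 23910.1, 25579.8, 29956 and 19592 CPM at day 7 (log2 change 0.96 ± 0.20, adjusted p = 0.00866) and kept its call in the 8 fits. Col6a5 (4.87 ± 0.71) and Col6a6 (3.89 ± 0.72), neighbouring genes for chains of type VI collagen on chromosome 9, rose from low levels. Col6a6 was at 4.53, 2.01, 1.07 and 2.22 CPM at day 3 and 65.1, 11.97, 7.94 and 61.5 CPM at day 7. Col24a1, a minor fibrillar collagen, rose from 1.28 ± 0.377 to 11.4 ± 11.6 CPM (3.16 ± 0.71). Without day 7 replicate 3, its highest library, the change was 2.27 (adjusted p = 0.0133). Col5a1 was at 203 to 423 CPM at day 3 and 310 to 517 CPM at day 7 and did not pass (0.64 ± 0.26, adjusted p = 0.104).

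Of 17 basement membrane genes 10 rose and 0 fell (median 1.08). Col15a1 was at 28.2, 18.6, 18.1 and 20.5 CPM at day 3 and 130.3, 145, 43.1 and 219.9 CPM at day 7 (log2 change 2.67 ± 0.40, adjusted p = 0.00259), Col18a1, the source of endostatin, rose by 2.07 ± 0.33 and Agrn, the proteoglycan agrin, by 2.26 ± 0.31. Of 40 matricellular and adhesion glycoprotein genes 21 rose and 1 fell (median 0.79). Postn (periostin) was at 2702, 3121, 4394 and 1664 CPM at day 3 and 5413, 4424, 6004 and 6775 CPM at day 7 (log2 change 0.94 ± 0.28, adjusted p = 0.0345), called in 3 of the 8 fits without a library. Comp, which assembles collagen fibrils in tendon and cartilage, was at 75.8, 58.1, 69.6 and 48.5 CPM at day 3 and 336, 1166, 93.7 and 199 CPM at day 7 (log2 change 2.86 ± 0.65, adjusted p = 0.0117), and changed by 1.74 (adjusted p = 0.0105) without day 7 replicate 2. Cilp2, a protein of cartilage matrix, rose by 3.46 ± 0.67. The member that fell was Ccn2, a matricellular protein that TGF-beta induces, at 428, 544, 441 and 399 CPM at day 3 and 235, 371, 225 and 318 CPM at day 7 (log2 change -0.65 ± 0.20, adjusted p = 0.0417). It was called in 1 of the 8 fits without a library, and without day 7 replicate 3 it did not pass (-0.54, adjusted p = 0.0701). Fn1 (fibronectin, 0.79 ± 0.33, adjusted p = 0.105) and Tnc (tenascin C, -0.05 ± 0.42, adjusted p = 0.95) did not pass, though Fn1 did without day 7 replicate 3 (0.99, adjusted p = 0.0297).

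Of 17 elastic fibre genes 6 rose and 1 fell (median 0.31), and 3 fell without day 7 replicate 3. Eln, which encodes elastin, was at 47.7, 35.3, 37.8 and 44.99 CPM at day 3 and 180.3, 176, 126 and 186 CPM at day 7 (log2 change 2.02 ± 0.17, adjusted p = 0.000363), and the microfibril gene Mfap4 rose by 2.18 ± 0.30. Ltbp2, a microfibril-associated protein, was the member that fell (-0.98 ± 0.27, adjusted p = 0.0274), called in 4 of 8 fits without a library. Of 31 proteoglycan and hyaluronan genes 10 rose and 1 fell (median 0.64). Lum, the collagen-binding proteoglycan lumican, was at 613, 756, 761 and 752 CPM at day 3 and 3563, 1235, 1606 and 2804 CPM at day 7 (log2 change 1.68 ± 0.30, adjusted p = 0.00518). Has2, a hyaluronan synthase, was the member that fell, at 44.3, 92.02, 84.5 and 70.9 CPM at day 3 and 33.6, 23.7, 37.05 and 37.6 CPM at day 7 (log2 change -1.14 ± 0.23, adjusted p = 0.00785).

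Of 30 genes for enzymes and chaperones that process and crosslink collagen 2 rose and 2 fell (median 0.17), and without day 7 replicate 3, 5 rose and 5 fell. With all libraries both shares were no higher than those of all genes tested (11.5% and 11.4%). Lox, the crosslinking lysyl oxidase, was at 508, 523, 498 and 464 CPM at day 3 and 176, 215, 524 and 208 CPM at day 7. Replicate 3 was at the level of day 3 and the other 3 day 7 libraries were lower. The change was -0.82 ± 0.31 (adjusted p = 0.0774) with that library and -1.31 (adjusted p = 0.000421) without it.

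Of 50 matrix protease and inhibitor genes 22 rose and 1 fell (median 0.67). Mmp2, the gelatinase A of fibroblasts, was at 488, 446, 476 and 416 CPM at day 3 and 1772, 1995, 1496 and 1617 CPM at day 7 (log2 change 1.92 ± 0.16, adjusted p = 0.000363). Mmp3 (stromelysin) was at 9.97, 14.4, 12.3 and 11.8 CPM at day 3 and 90.8, 62.7, 137 and 39.6 CPM at day 7 (log2 change 2.77 ± 0.33, adjusted p = 0.00142), and Mmp14, the membrane protease that activates MMP2, rose by 0.97 ± 0.19. Adamts15, a protease of proteoglycans, rose from 6.48 ± 2.28 to 35.1 ± 13.5 CPM. Timp1, an inhibitor of these proteases, was at 440.1, 886, 582 and 505 CPM at day 3 and 359, 346, 753 and 219 CPM at day 7 and did not pass (-0.52 ± 0.35, adjusted p = 0.302). Without day 7 replicate 3, where it was highest of that day, Timp1 fell (-0.96, adjusted p = 0.0268).

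Of 29 genes that mark FAPs and universal fibroblasts 9 rose and 2 fell (median 0.51). Pi16, a marker of the adventitial fibroblast reservoir, was at 51.1, 63.8, 29.7 and 33.6 CPM at day 3 and 498, 98.7, 102 and 220.2 CPM at day 7 (log2 change 2.36 ± 0.50, adjusted p = 0.00884). Clec3b (tetranectin, 2.73 ± 0.45) and Cd55, the decay accelerator of complement (1.98 ± 0.38), rose too, and in both day 7 replicate 3 was the lowest of its day. Dpp4, another marker of that reservoir, was at 15.7, 10.5, 9.0 and 11.8 CPM at day 3 and 120.2, 56.4, 7.29 and 23.2 CPM at day 7. It passed (log2 change 2.14 ± 0.64, adjusted p = 0.0358), though its day 7 replicate 3 lay below every day 3 library, and in 2 of the 8 fits without a library it still passed. Without day 7 replicate 1 its change was 1.34 (adjusted p = 0.102). The 2 members that fell were Anxa3, an annexin (-1.29 ± 0.24), and the chemokine Cxcl14 (-1.03 ± 0.21). Cd34 did not pass (0.77 ± 0.28, adjusted p = 0.0714) with day 7 replicate 3 and rose without it (0.98, adjusted p = 0.00888).

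Of 30 chemokine and cytokine genes 6 rose and 3 fell (median 0.30, and -0.20 without day 7 replicate 3). The share that fell was no higher than that of all genes tested (11.4%). Il11, a cytokine of the IL-6 family, was at 35.9, 73.04, 47.7 and 43.9 CPM at day 3 and 4.96, 10.7, 10.8 and 4.14 CPM at day 7 (log2 change -2.71 ± 0.36, adjusted p = 0.00169). Its groups did not overlap, which the rule for the largest falls required. Ccl2, which recruits monocytes, was at 3424, 5565, 5993 and 4629.97 CPM at day 3 and 2247, 3798, 2975 and 1439 CPM at day 7. Its adjusted p of 0.0537 missed the threshold (-0.90 ± 0.30), and Ccl2 was called in 2 of 8 fits without a library. Il6 was at 152, 468, 389 and 242 CPM at day 3 and 256, 337, 904 and 219 CPM at day 7 and did not pass (0.46 ± 0.47, adjusted p = 0.505). Its highest level was that of day 7 replicate 3, and without it the change was -0.20 (adjusted p = 0.701). The neutrophil chemokine Cxcl1 (-0.17 ± 0.36, adjusted p = 0.76), Cxcl5 (0.31 ± 0.85, 0.82), the monocyte chemokine Ccl7 (-0.28 ± 0.26, 0.461) and the alarmin Il33 (-0.27 ± 0.28, 0.521) did not pass. Cxcl1 was at 3527, 4660.3, 5018 and 4013 CPM at day 3 and 2726, 4378, 6496 and 1601 CPM at day 7, highest and lowest in day 7 libraries. Ccl9, a chemokine of myeloid cells, fell from 29.95 ± 6.62 to 5.301 ± 4.16 CPM (-2.51 ± 0.45).

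The 6 members that rose were Ccl5, Ccl8, Cxcl9, Cxcl10, Cxcl16 and Tslp. Cxcl9, which interferon gamma induces, was at 21.3, 27.9, 32.4 and 10.2 CPM at day 3 and 219, 143, 73.95 and 228 CPM at day 7 (log2 change 2.86 ± 0.41, adjusted p = 0.00229). Ccl5, which attracts T cells, was at 8.77, 7.72, 7.25 and 8.18 CPM at day 3 and 35.7, 41.7, 10.3 and 40.4 CPM at day 7 (log2 change 2.02 ± 0.36, adjusted p = 0.00498), lowest at day 7 in replicate 3. In the interferon response list 22 of 42 genes rose and 0 fell (median 0.93), and 32 of 43 rose without day 7 replicate 3. Irf1, a transcription factor that interferon gamma induces, was at 102, 115, 114 and 98.3 CPM at day 3 and 357, 289, 427 and 241 CPM at day 7 (log2 change 1.62 ± 0.19, adjusted p = 0.0012). Iigp1, a GTPase that attacks parasite vacuoles, was at 56.4, 59.2, 72.05 and 51.4 CPM at day 3 and 468, 166, 244 and 392 CPM at day 7 (log2 change 2.41 ± 0.29, adjusted p = 0.00151). Tgtp2, a related GTPase with a near-identical copy whose counts cannot be separated from it with certainty, rose by 2.36 ± 0.27. Gbp2, a guanylate-binding protein, was at 37.4, 38.5, 39.5 and 30.2 CPM at day 3 and 158, 136, 119 and 79.1 CPM at day 7 (log2 change 1.76 ± 0.21, adjusted p = 0.00125). Of 23 antigen presentation genes 14 rose and 0 fell (median 0.92). The class I genes H2-T23 (1.58 ± 0.25), H2-D1 (1.38 ± 0.28) and H2-Q6 (2.69 ± 0.29) rose, with the reservation that reads of class I genes can be shared. H2-D1 was at 737, 716, 784 and 707 CPM at day 3 and 2128, 2646, 889.9 and 1908 CPM at day 7, and replicate 3 of day 7 was closest to day 3.

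Interferon-induced genes are known for the interferon-stimulated response element, whose core letters TTTCNNTTT were searched on both strands. The core was found in 25 of 32 interferon response genes with an entry (78.1%), against 12.1% of 27025 genes. The 250 bases before the RefSeq start of Gbp2 (plus strand, chr3:142620413-142620662) and H2-T23 (minus strand, chr17:36032702-36032951) are shown as examples from both lists, with the core in capitals. Both genes were picked here after their matches were seen.
Gbp2: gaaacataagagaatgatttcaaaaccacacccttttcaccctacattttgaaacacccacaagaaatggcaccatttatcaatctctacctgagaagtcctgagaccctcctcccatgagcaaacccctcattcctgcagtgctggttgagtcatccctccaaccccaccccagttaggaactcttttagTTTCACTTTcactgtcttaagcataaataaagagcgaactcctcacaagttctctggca
H2-T23: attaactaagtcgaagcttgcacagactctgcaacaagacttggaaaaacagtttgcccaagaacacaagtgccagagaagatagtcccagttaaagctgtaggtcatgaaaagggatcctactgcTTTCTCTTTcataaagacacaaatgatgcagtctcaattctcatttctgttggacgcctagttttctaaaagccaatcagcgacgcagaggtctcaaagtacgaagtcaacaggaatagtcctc
The match lies 59 bases before the start in Gbp2 and 124 in H2-T23. It says nothing of a factor bound there.

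Of 22 complement genes 11 rose and 0 fell (median 1.02). C2, a serine protease of the classical pathway, was at 5.19, 4.398, 5.28 and 3.67 CPM at day 3 and 38.4, 46.6, 37.2 and 30.1 CPM at day 7 (log2 change 3.05 ± 0.19, adjusted p = 7.65e-05). C3, the component on which the pathways meet, was at 340.2, 386, 273 and 340.5 CPM at day 3 and 826, 1116, 1659.8 and 426 CPM at day 7 (log2 change 1.59 ± 0.34, adjusted p = 0.00934). C4b, a component of the classical pathway, rose as well (2.08 ± 0.32). Of 18 acute-phase and innate secreted proteins 6 rose and 0 fell (median 1.67, and 0.75 without day 7 replicate 3). Lbp, which presents lipopolysaccharide, rose by 1.47 ± 0.24 and the lipocalin gene Apod by 2.09 ± 0.40, and Apod was lowest at day 7 in replicate 3. Saa3, serum amyloid A3, was at 7.26, 31.4, 8.42 and 12.8 CPM at day 3 and 44.5, 73.5, 1519.9 and 22.97 CPM at day 7. Its rise of 4.78 ± 1.299 (adjusted p = 0.0241) was 1.66 (adjusted p = 0.0362) without day 7 replicate 3.

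Of 39 secreted growth factors 11 rose and 2 fell (median 0.45), against 11.5% and 11.4% of all genes tested. Mdk, the heparin-binding factor midkine, was at 12.98, 18.98, 25.6 and 15.3 CPM at day 3 and 159, 81.6, 129.8 and 209 CPM at day 7 (log2 change 3.000 ± 0.30, adjusted p = 0.000744). Fgf10, a ligand that acts on epithelia and preadipocytes, was at 1.05, 0.733, 0.537 and 0.494 CPM at day 3 and 5.42, 6.37, 4.98 and 5.57 CPM at day 7 (log2 change 2.98 ± 0.31, adjusted p = 0.000744). Vegfa, the endothelial growth factor, fell from 14.01 ± 4.22 to 7.59 ± 1.84 CPM (-0.88 ± 0.26, adjusted p = 0.0327), a call that held in 3 of 8 fits without a library and not in that without day 7 replicate 3 (-0.77, adjusted p = 0.0536). Of 37 WNT pathway genes 14 rose and 1 fell (median 0.79). Sfrp4, a decoy for WNT ligands, was at 29.9, 30.8, 31.1 and 27.2 CPM at day 3 and 322, 266, 347 and 109.99 CPM at day 7 (log2 change 3.14 ± 0.31, adjusted p = 0.000744). Every day 7 library lay above every day 3 library. Wif1, another WNT inhibitor, rose from 1.31 ± 0.3997 to 13.97 ± 8.62 CPM (mean ± SD, n = 4, lowest at day 7 in replicate 3, log2 change 3.43 ± 0.54, adjusted p = 0.00318), and Rspo2, which enhances WNT signalling, rose by 2.75 ± 0.53.

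Of 31 TGF-beta pathway genes 7 rose and 2 fell (median 0.27), and of 27 BMP pathway genes 8 rose and 0 fell (median 0.39). The share of TGF-beta pathway genes that fell was no higher than that of all genes tested (11.4%). Mstn, the muscle growth inhibitor myostatin, was at 1.54, 1.04, 1.66 and 0.952 CPM at day 3 and 18.8, 27.6, 4.198 and 11.9 CPM at day 7 (log2 change 3.604 ± 0.51, adjusted p = 0.00217). Gdf10, a ligand of the BMP family, passed (1.52 ± 0.49, adjusted p = 0.0467) with overlapping groups, and was called in 2 of 8 fits without a library. Bmp4 was at 6.46, 7.72, 4.66 and 7.65 CPM at day 3 and 23.4, 33.2, 3.04 and 15.97 CPM at day 7 and did not pass (log2 change 1.53 ± 0.53, adjusted p = 0.0604). Without day 7 replicate 3, where it was lower than in every day 3 library, it rose (1.88, adjusted p = 0.00109). Acta2, the smooth muscle actin of myofibroblasts, was at 268, 307, 357 and 205 CPM at day 3 and 50.3, 173, 223 and 89.6 CPM at day 7 and did not pass (log2 change -1.08 ± 0.39, adjusted p = 0.0697). It fell without replicate 3 (-1.43, adjusted p = 0.0186). The contractile list had 6 rises and 3 falls of 34, and 6 of each without that library. With all libraries 11.5% of all genes tested rose and 11.4% fell, so that the list's share of falls was no higher.

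Of 21 genes of retinoic acid metabolism 4 rose and 2 fell, against 11.5% and 11.4% of all genes tested, so that the share that fell was no higher than overall. Aldh1a2, which makes retinoic acid, was at 106, 201, 139.9 and 127 CPM at day 3 and 28.5, 21.4, 65.7 and 32.01 CPM at day 7 (log2 change -1.96 ± 0.34, adjusted p = 0.00415), and Crabp2, which carries it to the nucleus, rose by 2.45 ± 0.59 with its highest level (108 CPM) in day 7 replicate 3. Without that library the change of Crabp2 was 1.52 (adjusted p = 0.0116). Of 33 adipogenesis and lipid genes 10 rose and 1 fell (median 0.34). Pnpla2, the triglyceride lipase, rose by 1.66 ± 0.28. Pparg, the master regulator of adipocytes, was at 1.75 to 4.34 CPM on both days and did not pass (-0.13 ± 0.34, adjusted p = 0.81). Fabp5, a fatty acid binding protein, was the member that fell (-1.52 ± 0.45, adjusted p = 0.0345). It was called in 1 of 8 fits without a library, that without day 7 replicate 3 (-2.34, adjusted p = 8.5e-05).

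Of 25 genes of cholesterol synthesis 17 fell and 0 rose (median -0.99). Idi1, an isomerase of isoprenoid synthesis, was at 38.2, 43.9, 45.1 and 70.3 CPM at day 3 and 8.78, 14.8, 14.3 and 6.65 CPM at day 7 (log2 change -2.14 ± 0.29, adjusted p = 0.00183). Fdps, which makes farnesyl pyrophosphate, fell by 1.73 on the log2 scale. Of 40 unfolded protein response and ER folding genes 19 fell and 2 rose (median -0.51). The ER chaperone gene Hsp90b1 was at 1909.8, 2009, 1865 and 1786 CPM at day 3 and 798, 875, 1060.05 and 711 CPM at day 7 (log2 change -1.13 ± 0.17, adjusted p = 0.00256) and the disulfide isomerase gene Pdia6 fell too (-1.22 ± 0.20). The 2 members that rose were stress transcription factors, Atf3 (1.29 ± 0.22) and Ddit3 (0.71 ± 0.14), which encodes CHOP. Of 35 glycolysis and hypoxia genes 13 fell and 3 rose (median -0.47). Pgk1 was at 139, 247, 149 and 134 CPM at day 3 and 48.6, 46.7, 60.2 and 31.7 CPM at day 7 (log2 change -1.83 ± 0.25, adjusted p = 0.00194), and the glycolytic enzyme genes Eno1 (-1.59 ± 0.26) and Ldha (-1.33 ± 0.23) fell as well.

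Ribosomal protein genes fell in 50 of 68 cases and rose in 0 (median -0.65), and ribosome biogenesis genes in 12 of 42 and 0 (median -0.34). Rps29 was at 44.9, 65.5, 50.5 and 51.9 CPM at day 3 and 25.1, 22.7, 30.2 and 21.95 CPM at day 7 (log2 change -1.09 ± 0.16, adjusted p = 0.00261). Rpl31 (-1.08 ± 0.15) and Rps7 (-1.02 ± 0.16) fell by similar amounts, although reads of these genes can be shared with pseudogenes. The nucleolar chaperone gene Npm1 fell by 1.01 on the log2 scale. Nuclear genes of oxidative phosphorylation fell in 47 of 67 cases and rose in 0 (median -0.61). Ndufa4, a subunit of the respiratory chain, was at 169, 217, 209 and 180.2 CPM at day 3 and 82.8, 42.3, 97.1 and 84.9 CPM at day 7 (log2 change -1.33 ± 0.23, adjusted p = 0.00433), and Cox6a1 of complex IV fell by 0.84 on the log2 scale. The 13 genes that mitochondria encode did not go with them: 1 rose, mt-Nd4 (0.63 ± 0.18, called in 2 of 8 fits without a library), and 0 fell (median 0.13).

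The change also went with transcript length over all genes, and the ribosomal and respiratory genes are short. In the shortest of 5 classes of equal number (67 to 1212 bases) the median change was -0.36, 25.3% of genes fell and 3.84% rose. In the longest class (4138 to 123179 bases) the median was 0.31, 3.69% fell and 17.8% rose. The rank correlation of length with change was 0.340 over 16127 genes, which are not independent and share the same 8 libraries. The median length was 779 bases for ribosomal protein genes and 782 for nuclear respiratory genes, as for the mitochondrially encoded genes (784), against 3000 for mitosis and 2697 for cholesterol genes. Collagen genes were long (6457 bases). The part of length in these results was not tested.

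**Figure D3:**
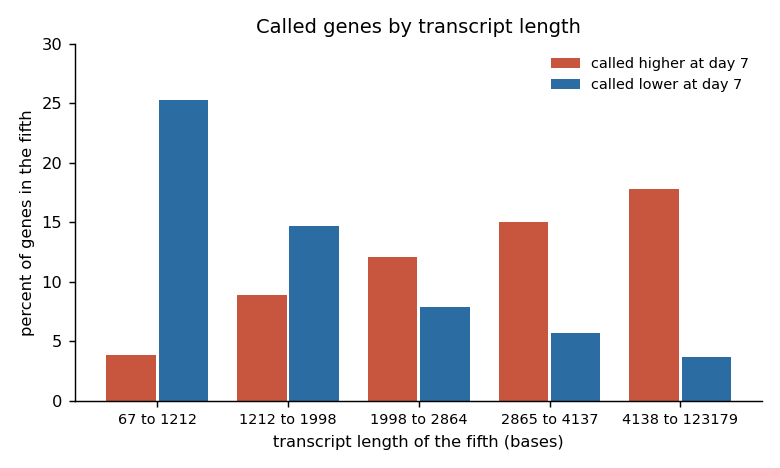
Percent of genes called higher (red) and lower (blue) at day 7 in 5 classes of tested genes of equal number, ordered by transcript length in bases. The share called lower drops from 25.3% in the shortest to 3.69% in the longest class, and the share called higher climbs from 3.84% to 17.8%.

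Of 18 clock and clock output genes 9 rose and 0 fell (median 0.75). Dbp, an output of the clock, was at 1.44, 1.47, 1.16 and 0.705 CPM at day 3 and 7.96, 8.09, 7.197 and 4.07 CPM at day 7 (log2 change 2.52 ± 0.33, adjusted p = 0.00168), and the period gene Per3 rose by 1.498 ± 0.29. Nr1d1, the repressor REV-ERB alpha, was at 38.2, 45.1, 42.5 and 10.4 CPM at day 3 and 73.4, 231, 89.4 and 68.3 CPM at day 7 (log2 change 1.78 ± 0.49, adjusted p = 0.0266), and lost its call in 4 of 8 fits without a library, among them that without day 7 replicate 2 (1.17, adjusted p = 0.0614). Tsc22d3, a target of glucocorticoids, rose by 1.598 ± 0.23, and 3 of 15 such targets rose, against 11.5% of all genes tested. Of 31 immediate-early genes, which respond within minutes to many stimuli, 9 rose and 0 fell, among them Jun, at 1061, 623, 728 and 1099 CPM at day 3 and 1576, 1533, 2622 and 2213 CPM at day 7 (log2 change 1.19 ± 0.25, adjusted p = 0.00841).

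Markers of some other cell types rose, while the summed levels of others overlapped between the days. Of 19 mature muscle fibre genes tested 16 rose (median 2.50), and the summed level of the 25 listed was 17.0 to 20.8 CPM at day 3 and 84.5 to 260 CPM at day 7. The skeletal actin gene Acta1 was at 2.18, 1.23, 1.52 and 0.282 CPM at day 3 and 106, 40.1, 36.1 and 61.8 CPM at day 7 (log2 change 5.55 ± 0.54, adjusted p = 0.000705), and Ckm, the muscle creatine kinase, rose by 5.93 ± 0.52 and the myosin light chain gene Myl1 by 6.39 ± 0.54. Erythroid sums were 12.0 to 20.8 CPM at day 3 and 35.9 to 97.9 CPM at day 7, and 5 of 6 tested genes rose, among them the globin genes Hba-a1 (3.14 ± 0.45) and Hbb-bs (3.06 ± 0.46). Slc4a1 and Rhag were at 0 in the 8 libraries. Endothelial sums were 96.0 to 137 and 147 to 239 CPM (5 of 11 tested genes rose). The rise of Pecam1 (3.22 ± 0.98) did not pass without day 7 replicate 2 (1.49, adjusted p = 0.135). Macrophage and monocyte sums were 39.8 to 103 and 94.4 to 165 CPM. Of 19 tested genes of that list 2 rose, among them Cd74 (2.23 ± 0.50), a share no higher than that of all genes (11.5%). Fitted changes were above 0 for 10 of its genes and below 0 for 9 (median 0.08, and -0.38 without day 7 replicate 3). Of 17 tenocyte and cartilage genes 13 rose (median 2.09). This list shares Comp, Cilp2 and Wif1 with the lists above, and its sums were 3033 to 3935 CPM at day 3 and 3178, in replicate 3, to 12340 CPM at day 7.

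With 4 libraries against 4 the exact two-sided permutation test cannot give a p below 0.0286, and after adjustment over 15 measures of the libraries none passed. The muscle fibre, erythroid, endothelial, neutrophil and lymphocyte sums and the share of the 100 most abundant genes (31.5 ± 1.12% at day 3, 36.8 ± 2.71% at day 7, SD, n = 4) reached that smallest p (adjusted p = 0.0714). Of 4 tested neutrophil genes 0 were called, and of 6 tested lymphocyte genes 1 rose. Lymphocyte sums were low, at 2.65 to 5.61 CPM at day 3 and 6.06 to 8.36 CPM at day 7. Satellite cell and myoblast sums overlapped (551 to 946 and 430 to 1272 CPM, highest in day 7 replicate 3). Pericyte and smooth muscle sums overlapped too (476 to 671 and 412 to 770.1 CPM), and 3 of 13 tested genes rose. Adipoq was at most 2.93 CPM, and Ucp1, which lets brown adipocytes make heat, stood at 12.0 CPM in day 7 replicate 4 and at most 0.369 CPM elsewhere. The part of such cells or of their free RNA in the changes above was not tested.

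FAPs of the BAT muscles, from the other muscle of the same mice and thus other libraries, changed in the same direction for most called genes. Of 16119 genes tested there 1655 rose (10.3%) and 2031 fell (12.6%). Fits without 1 library gave lower counts without day 3 replicate 2 (964 and 1321), day 3 replicate 3 (911 and 1224), day 7 replicate 1 (855 and 1033) or day 7 replicate 4 (1040 and 1223). Of the rises in control FAPs 59.8% were also called with BAT (67.4% of the BAT calls), and of the falls 81.9% (74.5% of the BAT calls). Of 142 genes named here 106 were called in both, with the same sign in each. Many of them were named because they were called in control FAPs, so that this count is no measure over all genes. A test of the difference between the day changes of both kinds of muscle, with the mouse as a block, called 0 of 18456 genes by edgeR, with 618 at an unadjusted p under 0.05. With no filter on low counts that test called genes, with a difference (BAT minus control) above 0 for 18 and below 0 for 82. On data simulated for FAPs and satellite cells, a test of this kind recovered 47% of 4-fold differences. The 0 calls therefore do not show that the day changes were equal. Igf2 changed by 6.73 ± 0.54 with BAT, Cdkn1c by 4.18 ± 0.50, Mki67 by -1.73 ± 0.40, Col1a1 by 1.96 ± 0.39 and Il11 by -2.97 ± 0.31. Ccl2, which missed the threshold in control FAPs, passed with BAT (-0.99 ± 0.27, adjusted p = 0.0258).

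A few genes had another sign or size with BAT. Apoe rose in control FAPs, at 15.4, 41.3, 44.2 and 24.9 CPM at day 3 and 182, 124, 148 and 257 CPM at day 7 (log2 change 2.51 ± 0.35, adjusted p = 0.00198), and did not pass with BAT (-1.896 ± 1.38, adjusted p = 0.344). In the BAT library of day 3 replicate 1 Apoe was at 2860 CPM, Hba-a1 at 165 CPM and the macrophage sum at 7438 CPM, against at most 62.2, 10.5 and 168 CPM in the other 3 BAT libraries of day 3 (CPM without TMM scaling). Without that library Apoe rose with BAT by 2.53 ± 0.53 (adjusted p = 0.0117) and Acta1 by 5.95 ± 0.59 (adjusted p = 0.00167), while Hba-a1 did not pass (0.42 ± 0.74, adjusted p = 0.715). Hba-a1 and Hbb-bs were called in control FAPs and in neither fit with BAT, but the test of the difference itself called 0 genes.

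**Figure D4:**
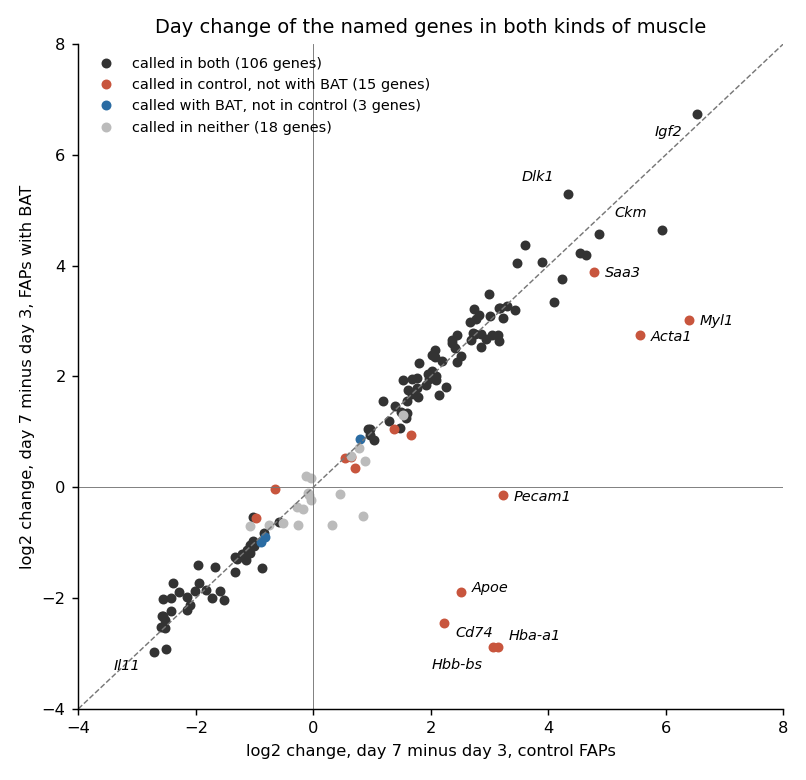
Log2 change from day 3 to day 7 of 142 named genes in control FAPs (horizontal) and in FAPs with BAT (vertical), with the dashed line where both are equal, coloured by where a gene was called. Most points lie near the line, with Apoe, Cd74, the globins, Pecam1, Acta1 and Myl1 farther off it. Many of the genes were named because they were called in control FAPs. BAT values include the macrophage-rich library of day 3 replicate 1.

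Satellite cells of the same control muscles were set beside FAPs to compare the day changes of both cell types. The difference of the day changes, FAPs minus satellite cells with the mouse as a block, passed the test (adjusted p under 0.05) with a value above 0 for 1445 of 19378 genes (7.46%) and below 0 for 2755 (14.2%). The latter count was 1700 without the mouse of day 3 FAP replicate 3. The median difference over all genes was -0.13. The list counts that follow are of differences that passed. Mitosis genes fell further in FAPs: 51 of 66 had a difference below 0 and 0 above, and the median change was -1.92 in FAPs and -0.78 in satellite cells. For Mki67 the changes were -1.94 ± 0.33 and -0.29 ± 0.18 (difference -1.82 ± 0.26, adjusted p = 0.00137). H19 (2.36 ± 0.18) and Cdkn1c (2.65 ± 0.46) rose more in FAPs than in satellite cells. For 19 of 34 collagens and 33 of 43 interferon genes the difference was below 0, and for 0 above. Il6, which did not pass in FAPs, differed by -3.96 ± 0.61 (adjusted p = 0.00188), and Ccl2 by -3.25 ± 0.79 (adjusted p = 0.0164). Of 68 ribosomal protein genes 19 had a difference above 0 and 0 below. Some lists of other cell types also moved in the satellite cell libraries. Their median changes there were -4.44 for macrophage, 3.46 for pericyte, 2.99 for Schwann cell and 2.79 for tenocyte genes, beside 2.82 for collagens. The part of such cells in the differences between FAPs and satellite cells was not tested.

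**Figure D5:**
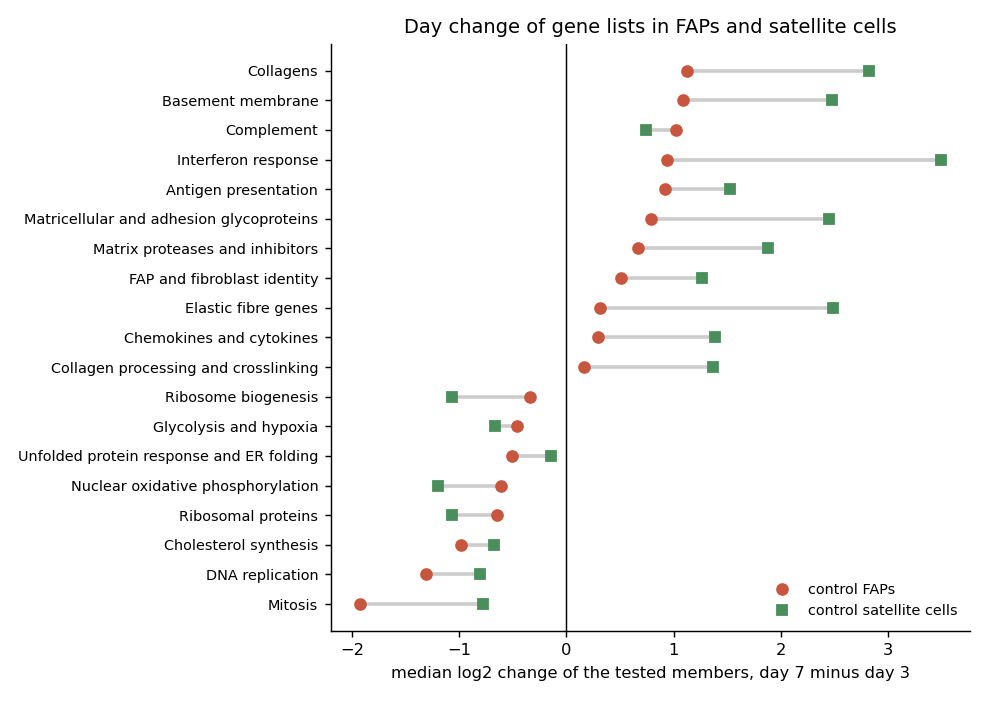
Median log2 change from day 3 to day 7 of the tested members of 19 gene lists in control FAPs (circles) and control satellite cells (squares). The mitosis list lies at -1.92 in FAPs and -0.78 in satellite cells, and the interferon list at 0.93 and 3.50.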

How the data were processed

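RNA was sequenced from sorted cells in 32 libraries, 8 groups of 4, of which the 8 control FAP libraries were compared. There were 4 mice per day, and both muscles and both cell types of each mouse gave a library. Per the labels' protocols, libraries were made from 10 ng of total RNA (RIN above 8) with a SMARTer Ultra Low kit. Reads were processed with DRAGEN on mm10, per the submitters' processing notes. The authors deposited 1 table of estimated counts per gene and day, of 55774 entries each. The values are expected counts, 71.3% and 72.1% of those above 0 being whole, and were rounded here. After 287 repeated entries with identical values were dropped, 55487 genes remained.

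Groups come from the labels. Genes were filtered with edgeR 4.0.16's filterByExpr (minimum count 10, minimum total 15), scaled by TMM and tested with its quasi-likelihood F test and Benjamini-Hochberg adjustment (threshold 0.05), day 7 against day 3, without a block. SEs are the absolute log2 change divided by the square root of F. Differences of day changes between cell types or muscles were tested with the mouse as a block. The labels of 1 day 3 mouse carry no code, and its libraries were taken to come from 1 mouse. DESeq2 1.42.0, limma 3.58.1 (voom), other filters and scalings, a replicate block and leaving out each library served as alternatives. Correlations and components used log2(CPM + 1). Tested on simulated data for this comparison (16144 genes), edgeR recovered 40% of 2-fold and 83% of 4-fold changes. The test of a difference of day changes, simulated for FAPs minus satellite cells (18069 genes), recovered 47% of 4-fold differences.

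Members and gene lists were chosen with earlier results of these data known. Named genes were a set of key genes, per list up to 3 called members in each direction with groups that did not overlap and a mean of at least 5 CPM in the higher group, and the 12 largest rises and falls at 20 CPM or more. Others are named as chosen after their values were seen. Replicate 4 of a day is the library whose label gives no number. Mice of both days differed, and the libraries of 1 group differed by more than sampling noise (a chi-square of at least 16.8 per degree of freedom). Floors cover counting error only, while SEs and SDs also take in the spread between libraries of a group. Gene positions and lengths come from GENCODE M21 (55141 of 55487 gene IDs matched), promoters from RefSeq. Results for a few items withheld from the text are not reported here.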

Additional observations from a re-analysis of the deposited data

Results flagged for a closer look

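In 26 of 320 groups of 4 libraries looked at, 1 library stood apart from the other 3, its gap to the nearest exceeding Dixon's critical share of the group's range. For independent, normally distributed values chance would flag about 1 in 20 groups. Here the genes were selected and share the same libraries, and CPM were used without logs, so that rate need not hold. A group at 0 in all libraries but 1, such as Pax7 at day 7, is flagged at any level. Day 3 replicate 1 lay above the others for Col5a1 (423 CPM) and Ucp1 (0.211 CPM). Day 3 replicate 2 lay above the others for Pgk1 (247 CPM) and Eno1 (618 CPM). Day 3 replicate 3 lay above the others for Hba-a1 (4.43 CPM). Day 3 replicate 4 lay above the others for Fdps (104 CPM). Day 3 replicate 1 lay below the others for Lum (613 CPM). Day 3 replicate 3 lay below the others for Ly6a (662 CPM). Day 7 replicate 2 lay above the others for Nr1d1 (231 CPM). Day 7 replicate 3 lay above the others for Pax7 (0.554 CPM), Ptprc (0.231 CPM), Birc5 (30.2 CPM), Pclaf (36.3 CPM), Cdk4 (298 CPM), Lox (524 CPM), Saa3 (1519.9 CPM), Kcnj15 (68.5 CPM), Cdkn3 (8.81 CPM), Trip13 (9.78 CPM), Cpz (44.5 CPM) and Fabp5 (41.2 CPM). Day 7 replicate 4 lay above the others for Cxcl14 (121 CPM) and Ucp1 (12.03 CPM). Day 7 replicate 3 lay below the others for Eln (126 CPM). Day 3 replicate 3 had the lowest total, at 22.7 in units of 1e6 counts. Day 7 replicate 2 had the highest share in its 100 most abundant genes, at 40.8%.

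For 55 named genes the day change of control FAPs differed from that of control satellite cells, by edgeR's test of the difference with the mouse as a block (adjusted p under 0.05, log2, FAPs minus satellite cells). It was above 0 for 13 of them: Myl1 (3.25), Acta1 (2.72), Cdkn1c (2.65), H19 (2.36), Cdkn1a (1.800), Mdk (1.47), Pnpla2 (1.44), Npm1 (1.08), Mest (0.97), Rps29 (0.84), Rpl31 (0.63), Rps7 (0.53) and Cox6a1 (0.50). It was below 0 for 42, among them proliferation, matrix and interferon genes: Iigp1 (-4.202), Il6 (-3.96), Tgtp2 (-3.95), Col15a1 (-3.87), Col6a6 (-3.85), Acta2 (-3.82), Mxd3 (-3.77), Lox (-3.39), Col1a1 (-3.37), Postn (-3.28), Ccl2 (-3.25), Tnc (-3.15), Meg3 (-3.12), Col5a1 (-3.06), Mfap4 (-3.01), Cxcl9 (-2.88), Igf1 (-2.88), H2-Q6 (-2.75), Eln (-2.72), Ccn2 (-2.49), Fn1 (-2.44), Mmp2 (-2.38), Col3a1 (-2.199), Plagl1 (-2.11), Cxcl1 (-1.94), Top2a (-1.93), Gbp2 (-1.91), Mki67 (-1.82), Asf1b (-1.81), Melk (-1.75), Bmp4 (-1.72), Mcm5 (-1.71), Tk1 (-1.702), Cdkn3 (-1.63), Mmp14 (-1.33), Spc24 (-1.32), Irf1 (-1.32), Pclaf (-1.27), Birc5 (-1.09), Per3 (-0.91), Pdia6 (-0.74) and Hsp90b1 (-0.67). Igf2 missed the threshold (1.797, adjusted p = 0.0502).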

How the results depend on the processing

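Counts of genes higher and lower at day 7 in control FAPs were 1779 and 1888 with DESeq2's size factors in edgeR, 2344 and 2279 with DESeq2, 1606 and 1955 with voom, 1942 and 1647 without a filter and 1759 and 1818 with a strict one, and DESeq2 called 99.6% and voom 90.9% of the same genes in the same direction. Leaving out 1 library gave 1015 to 2429 and 965 to 2197 (at least 2-fold, 767 to 1447 and 429 to 899). With BAT it gave 855 to 2185 and 1033 to 2511. Leaving out 1 mouse gave 0 to 0 and 0 to 1 for the difference between muscles, and 1008 to 1655 and 1700 to 2919 for that between cell types. Without a filter the difference between muscles had 18 and 82 calls.

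Same-numbered libraries of both days came from different mice, and their deviations correlated at -0.024, -0.000 and 0.077, so the number pairs nothing. With a replicate block on replicates 1 to 3, 286 genes were higher and 142 lower (at least 2-fold, 286 and 141), and 0 and 0 with BAT, by edgeR. Without the block, on the same libraries and chosen after seeing the data, 656 and 560 (at least 2-fold, 544 and 330) and, with BAT, 356 and 432. Replicate 3 correlated best with its own number, replicates 1 and 2 did not.

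Of 142 named genes with a test 62 stayed on their side of the threshold in every alternative run, 61 lost a call in at least 1, 10 gained one and 9 changed sign, none of the 9 called. These were Pdgfra (0.0683 and, with the replicate block, 0.0528 on replicates 1 to 3), Ly6a (0.128 and 0.0579), Cxcl1 (0.0511 on replicates 1 to 3), Il33 (0.0118 with the block), Cxcl5 (-0.76 with voom), Ddx3y, Tnc, Il6 and Pparg. Leaving out 1 library gave -0.142 to 0.0693 for Pdgfra, -0.291 to 0.0949 for Ly6a, -0.453 to 0.322 for Ddx3y, -0.527 to 0.236 for Tnc, -0.552 to 0.0865 for Cxcl1, -0.208 to 0.699 for Cxcl5, -0.197 to 0.729 for Il6 and -0.365 to 0.0835 for Pparg. Among library measures it gave -0.474 to 2.34 total counts (in units of 1e6), -412 to 28.7 genes detected, -34.7 to 84.5 CPM of pericyte and -42.5 to 238 CPM of satellite cell markers. The block took the call from 52 named genes, and the same libraries without it from 21. At the depth of the shallowest library, a gene with 0 counts may have been at up to 0.136 CPM. The cause of these shifts was not tested.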
